A study of Mus musculus with 12 samples.

Results

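Neutrophil granule genes were examined in cultured mouse BMDMs, macrophages differentiated from bone marrow. The 10 members were given by name (S100a8, S100a9, Retnlg, Ngp, Camp, Ltf, Mmp8, Mpo, Elane and Ly6g), and all 10 were found among the 48526 genes of the count table. They were chosen by symbol, with expression differences of these libraries already known and no threshold, and the comparison that led to the list is not given. Their values and calls are therefore a description that supports nothing by itself, and no p-value is printed for a single member. Total RNA was sequenced from homozygous HSS9 KO mice and from HSS9+/+ controls (WT), where HSS9 is an enhancer upstream of Tnf. BMDMs of each genotype received PBS (untreated, UT) or lipopolysaccharide (LPS), a bacterial cell wall component, for 6 hr. Each of the 4 groups held 3 libraries. All cells were grown for 6 d in medium with 10% fetal bovine serum and 20% medium conditioned by L929 cells, the source of macrophage growth factor. The methods of the study describe male, young adult mice, a KO line bred as homozygotes and purchased C57BL/6 mice, whereas the labels call the controls littermates, so genotype and breeding history cannot be told apart. Whether libraries came from separate mice or cultures is not stated, so spreads and p-values cover these libraries only.

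Neutrophils fill their granules in a fixed order while they mature in bone marrow. Primary (azurophil) granules are loaded first, with myeloperoxidase and serine proteases. Secondary (specific) and tertiary granules follow, with antimicrobial proteins and matrix proteases. The calprotectin subunits are stored in the cytosol rather than in granules. Several of these genes are not limited to neutrophils, since monocytes and stimulated macrophages can also transcribe S100a8, S100a9 and others of the list. Bone marrow cultures start from a tissue rich in neutrophils and their precursors. In these bulk samples, fewer cells of a type and less RNA per cell cannot be told apart.

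By role, S100a8 and S100a9 encode the calprotectin subunits, and Ngp, Camp, Ltf and Mmp8 encode proteins of the later granules. Mpo and Elane mark the primary granules, Ly6g is the surface antigen used to sort mouse neutrophils, and Retnlg encodes a secreted resistin-like protein of myeloid cells. On GRCm38, S100a8 (ENSMUSG00000056054.9) lies on the plus strand at chr3:90668978-90670035. S100a9 (ENSMUSG00000056071.12) lies 22596 bases away on the minus strand at chr3:90692632-90695721. Camp (ENSMUSG00000038357.10, chr9:109847379-109849617, minus strand), Ngp (ENSMUSG00000032484.8, chr9:110419747-110423012, plus strand) and Ltf (ENSMUSG00000032496.7, chr9:111019271-111042767, plus strand) share a chromosome with Mmp8 (ENSMUSG00000005800.2, chr9:7558456-7568485, plus strand). The others are Retnlg at chr16:48872621-48874496, Mpo at chr11:87793581-87804413, Elane at chr10:79886247-79888215 and Ly6g at chr15:75155240-75159126, all on the plus strand. All 10 are annotated as protein coding. Mpo alone is overlapped by another gene, Gm11505 on the opposite strand, and without a stated strand setting its few reads could belong to either.

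Promoter sequences are shown for the neighbours S100a8 and S100a9, whose counts went opposite ways after LPS, and for Ltf and Mmp8. Ltf was lower after LPS in each genotype. Mmp8 had the most counts of the members in UT cells, without regard to exon length. They are the RefSeq bases on GRCm38.p6 just before the first annotated start of the gene, written 5′ to 3′ on the strand of the gene. Capitals mark matches to TTGCNNAA, a motif of C/EBP factors, or to GGAAGT, a motif of PU.1, on either strand (the other strand reads TTNNGCAA and ACTTCC). The regions are chr3:90668821-90668977 for S100a8, chr3:90695722-90695971 for S100a9 (minus strand), chr9:111019042-111019270 for Ltf and chr9:7558179-7558428 for Mmp8.
S100a8: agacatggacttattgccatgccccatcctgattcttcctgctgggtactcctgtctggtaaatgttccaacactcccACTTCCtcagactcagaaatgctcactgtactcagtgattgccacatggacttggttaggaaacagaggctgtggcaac
S100a9: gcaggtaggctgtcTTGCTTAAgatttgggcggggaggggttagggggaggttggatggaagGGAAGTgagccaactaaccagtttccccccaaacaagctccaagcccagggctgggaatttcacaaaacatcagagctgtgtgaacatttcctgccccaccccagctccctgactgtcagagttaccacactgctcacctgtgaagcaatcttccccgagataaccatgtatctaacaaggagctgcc
Ltf: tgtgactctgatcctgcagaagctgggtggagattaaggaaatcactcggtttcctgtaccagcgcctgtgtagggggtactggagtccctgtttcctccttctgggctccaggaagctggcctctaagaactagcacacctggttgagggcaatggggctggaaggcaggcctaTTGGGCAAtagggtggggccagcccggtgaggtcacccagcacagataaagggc
Mmp8: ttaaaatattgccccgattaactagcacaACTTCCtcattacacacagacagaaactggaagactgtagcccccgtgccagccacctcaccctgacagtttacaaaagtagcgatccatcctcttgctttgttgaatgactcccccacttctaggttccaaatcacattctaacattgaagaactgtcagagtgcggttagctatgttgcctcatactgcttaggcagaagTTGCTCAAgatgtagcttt

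In the 250 bases before the RefSeq start, the C/EBP motif was found for 6 of the 10 members (S100a9, Retnlg, Ngp, Ltf, Mmp8 and Ly6g), against 9.56% of 32851 promoter windows of that length. The PU.1 motif was found for 6 members (S100a8, S100a9, Mmp8, Mpo, Elane and Ly6g), against 19.7% of windows. S100a8 carried TATAAA, the TATA box, 30 bases before its start, and Ly6g carried it too, against 12.4% of windows for TATAAA or TTTATA. A loose NF-kB motif, GGG and CC with 5 bases between them on either strand, was found for 3 members, against 45.8% of windows, and the AP-1 motif TGANTCA for 0 members, against 6.75%. These counts take the first listed window of Ly6g, and describe letters in a window, not binding.

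Total counts ran from 26154533 to 36423921 per library. The cells matched their label, with all 10 macrophage markers kept by the filter and a summed level of 6394 ± 70.5 CPM (counts per 1000000 after TMM scaling, a correction for composition, as mean ± SD with n = 3) in WT UT. Short structured RNAs (Rn7sk, Rmrp, Rpph1, Rn7s1, Rn7s2 and Rn7s6) set libraries apart. They held 6.51% to 7.70% of counts in KO UT against 2.92% to 3.16% in WT UT, and 3.93%, 5.23% and 6.72% in WT LPS against 3.15% to 3.29% in KO LPS. The summed level of the 10 members was far below that of the macrophage markers, at 70.2 ± 2.33 CPM in WT UT, 82.4 ± 0.852 in KO UT, 97.7 ± 14.8 in WT LPS and 101.7 ± 4.83 in KO LPS. The LPS groups were also above the UT groups with the other 3 scalings tried. Without any scaling for composition the order turned, and the means were 90.6, 95.8, 79.5 and 83.1 CPM, with the LPS groups below the UT groups.

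The members were unequal. In WT UT, Mmp8 held 69.8% ± 1.90 of the summed level, S100a9 15.7% ± 1.24 and S100a8 10.4% ± 0.541. In WT LPS, S100a8 held 53.4% ± 5.25 and Mmp8 35.7% ± 5.26. Per kilobase of exon, the level in WT UT was highest for S100a9 (21.0 ± 1.24 CPM per kb) and Mmp8 (20.2 ± 1.18), which differed by less than their spread. S100a8 followed at 10.5 ± 0.238 CPM per kb, and Ltf (0.529 ± 0.106), Ngp (0.480 ± 0.0655), Camp (0.272 ± 0.0563), Retnlg (0.160 ± 0.0786), Elane (0.140 ± 0.134) and Mpo (0.0149 ± 0.00917) were far lower, with Ltf and Ngp, and Retnlg and Elane, within their spread. In KO UT the order per kilobase was S100a9 (48.8 ± 3.23), S100a8 (23.6 ± 2.13) and Mmp8 (14.8 ± 0.965). In KO LPS it was S100a8 (81.9 ± 7.03), S100a9 (19.6 ± 3.64), Mmp8 (12.3 ± 0.471) and Camp (5.50 ± 0.696). Of the 10 members, 8 passed the filter on low counts, while Elane and Ly6g did not. Ly6g had 0 counts in all 12 libraries, which allows up to 3 counts in each.

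**Figure D1:**
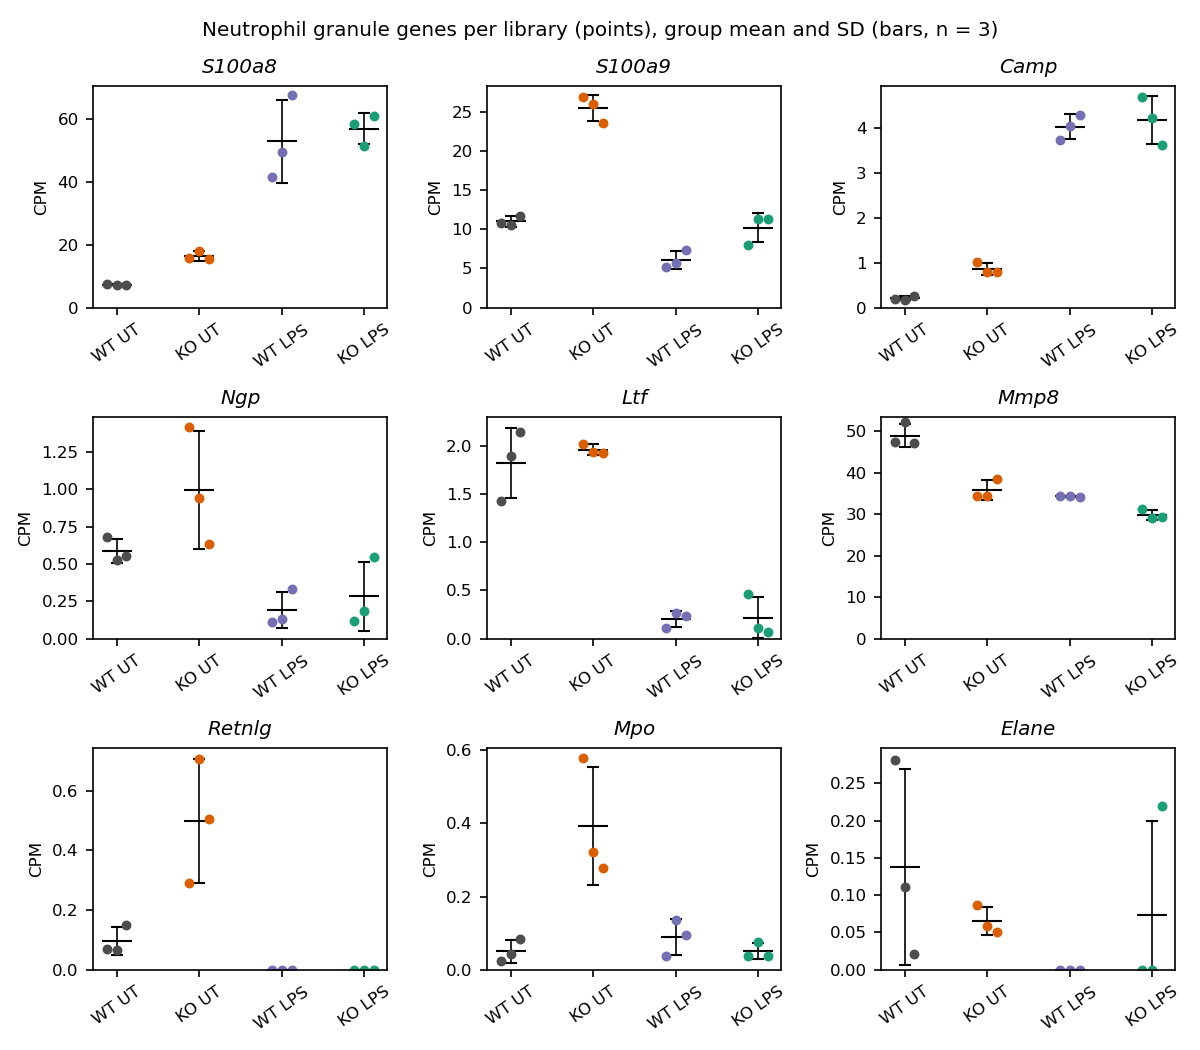
Level in CPM (vertical axis, linear, from 0) of the 9 members with any counts, in each library (points) of the 4 groups, with the group mean and SD (bars, n = 3). S100a8 and Camp sit highest in the LPS groups, S100a9 and Retnlg in KO UT, and Mmp8 in WT UT, while Retnlg has 0 counts in all 6 LPS libraries.

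The first comparison asked how the deletion bears on these genes in unstimulated cells. S100a8, S100a9, Camp, Retnlg and Mpo were higher in KO UT than in WT UT, and Mmp8 was lower. S100a8 had 321, 327 and 340 counts in WT UT and 540, 615 and 609 in KO UT, or 7.51, 7.21 and 7.23 CPM against 15.6, 18.1 and 15.4. The 2 groups did not overlap, as was so for 21.6% of all genes tested that were higher and 19.1% that were lower in KO UT, and the fitted log2 difference was 1.16 (SE 0.134). S100a9 had 460, 475 and 551 counts against 927, 885 and 932, or 10.5 to 11.7 CPM against 23.6 to 26.8, without overlap and with a log2 difference of 1.21 (SE 0.113). Within each batch (libraries of the same replicate number), the log2 difference of S100a9 was 1.32, 1.31 and 1.01, and that of S100a8 1.06, 1.32 and 1.09.

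Camp, the cathelicidin precursor of specific granules, had 8, 8 and 12 counts in WT UT and 35, 27 and 31 in KO UT. These groups did not overlap, with a log2 difference of 2.04 (SE 0.293), although the counts were low. Retnlg had 3, 3 and 7 counts against 10, 24 and 20, a log2 difference of 2.34 (SE 0.601). Mpo, the myeloperoxidase of primary granules, had 1, 2 and 4 counts against 20, 11 and 11. Each KO UT library of Mpo was above each WT UT library, but the WT UT counts were close to 3, the limit that a count of 0 allows. Fitted values of Retnlg and Mpo against WT UT, here and below, rest on such low counts and support nothing.

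For Ltf and Ngp the UT groups overlapped. Ltf, the iron-binding lactotransferrin, had 61, 86 and 101 counts in WT UT and 70, 66 and 76 in KO UT, which overlap (log2 difference 0.10, SE 0.290). Ngp, a cathelicidin-related granule protein, had 29, 24 and 26 counts against 49, 32 and 25, which overlap as well (0.76, SE 0.430), although within batches the log2 difference of Ngp was 1.05, 0.82 and 0.19. Mmp8, neutrophil collagenase, went the other way, with 47.4, 52.3 and 47.3 CPM in WT UT and 34.4, 34.5 and 38.5 in KO UT. No KO library of Mmp8 reached the lowest WT library, and the log2 difference was -0.45 (SE 0.0635). Elane, neutrophil elastase, had 12, 5 and 1 counts in WT UT and 3, 2 and 2 in KO UT, which overlap.

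With a call defined as an adjusted p below 0.05 in edgeR's quasi-likelihood test and an absolute log2 fold change above 1, 5 of the 8 members tested were called higher and 0 lower, where 1.02% of all 15523 genes tested were called higher and 0.799% lower. These were S100a8, S100a9, Camp, Retnlg and Mpo. Retnlg and Mpo reached 10 counts in KO UT only, so they passed the filter through the group in which they were high, and their calls support nothing. Mmp8 was under the fold minimum. The median log2 difference of the 8 was 1.19, against 0.00 over all genes tested. Because the members were listed with these results known, nothing is read from this contrast.

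Exon length moved with this genotype difference. S100a9, Retnlg, S100a8 and Camp are short, with 522, 593, 694 and 758 bases of exon, whereas Mmp8 and Ltf have 2425 and 3450. Over all protein-coding genes tested, the median log2 difference of KO UT from WT UT was 0.63 for 187 genes under 800 bases, 0.39 for 823 genes from 800 bases, 0.12 for 2829 genes from 1600 bases and -0.06 for 8392 genes of 3200 or more bases. S100a8, S100a9, Camp and Retnlg lay above the median of their length class, but they were listed with these results known, so nothing is read from this. With a length trend per library and the batch number as a replicate block in the fit, the log2 difference of S100a8 was 0.55 and that of S100a9 0.51, and 2 members, Camp (1.45) and Mpo (2.75), were still called. Retnlg was not called there, at 1.68. With the short RNA share as a covariate, 0 members were called, although the log2 difference was 3.07 for Retnlg and 1.65 for Camp. In that fit it was 0.87 for Mpo, 0.52 for S100a9 and 0.19 for S100a8. The share itself did not overlap between KO UT and WT UT, so that genotype and share cannot be told apart here.

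**Figure D2:**
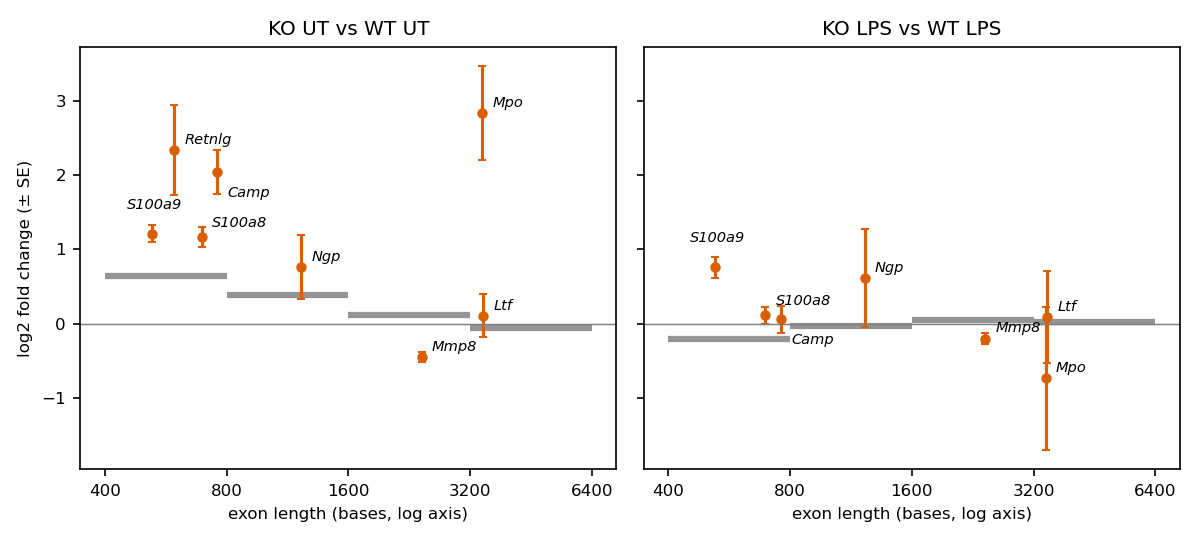
Log2 difference between genotypes (vertical axis, points with SE) of the members against exon length in bases (horizontal axis, log scale), in UT cells (left) and after LPS (right), with grey bars for the median of all protein-coding genes of each length class. In UT cells the class under 800 bases has a median of 0.63, and the 4 short members, listed with these results known, lie at 1.16 to 2.34. The class medians after LPS lie between -0.21 and 0.04.

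After LPS, the S100a8 libraries of the genotypes overlapped. S100a8 had 1110, 1103 and 1428 counts in WT LPS and 1516, 1370 and 1665 in KO LPS, or 52.7 ± 13.3 CPM against 56.8 ± 4.88 (n = 3), a difference smaller than the spread (log2 0.11, SE 0.115). Within WT LPS, S100a8 was 41.4, 49.5 and 67.3 CPM in the libraries with short RNA shares of 3.93%, 5.23% and 6.72%. With that share as a covariate, the log2 difference of KO LPS from WT LPS was 0.60. S100a9 had 138, 128 and 156 counts in WT LPS and 209, 300 and 310 in KO LPS. Its groups did not overlap, where 14.1% of genes tested were higher and 14.9% lower in KO LPS without overlap. The log2 difference of S100a9 was 0.76 (SE 0.140), against 1.21 in UT cells, and within batches it was 0.64, 0.97 and 0.62. It was 1.10, and called, with the short RNA share as a covariate. Without the covariate it was below the fold minimum, and 14.3% of genes tested passed the adjusted p at any fold.

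Camp overlapped too, with 100, 90 and 91 counts in WT LPS and 122, 112 and 99 in KO LPS (log2 difference 0.05, SE 0.186). Mmp8 was 34.4, 34.5 and 34.3 CPM against 31.2, 29.2 and 29.2, lower in KO LPS without overlap by a log2 difference of -0.20 (SE 0.0681). Ngp had 3, 3 and 7 counts against 3, 5 and 15, Ltf 3, 6 and 5 against 12, 3 and 2, and Mpo 1, 3 and 2 against 1, 2 and 1, all of which overlap. Most of these counts lie near the floor of 3 counts, apart from 15 counts of Ngp and 12 of Ltf in 1 KO library each. Elane had 0 counts in each WT LPS library and 0, 0 and 6 in KO LPS, so that 1 library held all of its reads. Retnlg was at 0 counts in both groups and could not be called. By edgeR's test 0 of the other 7 members were called (Ngp, Ltf and Mpo from such low counts), where the shares of all genes tested were 0.586% higher and 0.664% lower, with 2 members at an unadjusted p below 0.05 and 0 called by DESeq2. The median log2 difference was 0.09 over these 7, against -0.01 over all genes tested.

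After LPS the members differed in direction. S100a8 and Camp were higher after LPS in each genotype, and Ltf, Ngp and, in smaller measure, S100a9 and Mmp8 were lower. Retnlg was lower in KO, while in WT it was close to the floor before LPS. In WT cells the S100a8 counts of 321, 327 and 340 compare with 1110, 1103 and 1428 after LPS, a log2 difference of 2.84 (SE 0.131). In KO cells it was 1.80 (SE 0.122), from a higher UT level. Camp was the member with the highest log2 difference, at 4.25 (SE 0.255) in WT, where it went from 8, 8 and 12 to 100, 90 and 91 counts, and 2.27 (SE 0.211) in KO.

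Ltf went from 61 to 101 counts per library in WT UT to 3 to 6 in WT LPS, and from 66 to 76 in KO UT to 2 to 12 in KO LPS. The fitted log2 differences were -3.17 (SE 0.433) in WT and -3.18 (SE 0.416) in KO. Ngp was lower as well, with log2 differences of -1.63 (SE 0.573) in WT and -1.78 (SE 0.502) in KO. Retnlg had 0 counts in all 6 LPS libraries, against 10, 24 and 20 in KO UT, so it was at least 4.45-fold lower in KO with 3 counts per library as the floor. In WT, where Retnlg had 3, 3 and 7 counts before LPS, no fold is given.

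S100a9 had a log2 difference of -0.86 (SE 0.134) in WT and -1.32 (SE 0.119) in KO, and its UT and LPS libraries did not overlap in either genotype. Among all genes tested, 38.5% were higher and 36.3% lower without overlap after LPS in WT, and 36.6% and 39.4% in KO. Mmp8 was lower after LPS without overlap by smaller log2 differences, -0.51 (SE 0.0652) in WT and -0.26 (SE 0.0664) in KO. Mpo stood at 1, 3 and 2 counts in WT LPS, overlapping its 1, 2 and 4 in WT UT, while in KO it went from 20, 11 and 11 to 1, 2 and 1.

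In WT, 2 of 8 members were called higher and 3 lower after LPS, against 19.1% and 18.7% of all genes tested. The 3 were Ltf, Ngp and Retnlg, which all passed the filter through UT groups alone, so these calls support nothing. That of Retnlg rests on 3, 3 and 7 counts. In KO, 2 were called higher and 5 lower, against 17.7% and 19.3%. Of the 5, Retnlg and Mpo passed the filter through KO UT alone, and Ltf and Ngp through the UT groups alone. The lower values of these genes after LPS therefore support nothing, and the remaining call was that of S100a9. With the length trend and the replicate block, S100a9 was not called in KO, at -0.55. With the short RNA share as a covariate, 3 members were called in KO (S100a8, Camp and Retnlg), and the log2 difference was -0.66 for S100a9, -1.02 for Mpo and 0.89 for Ngp, which turned. Ltf was not called in that fit either, with a log2 difference of -2.59 against -3.18. The median log2 difference of the 8 members was -0.69 in WT and -1.55 in KO, against 0.05 and -0.06 over all genes tested. With the WT LPS replicate 1 left out, 3 members were called in WT, since Retnlg and Ngp were no longer called. Retnlg was also lost without WT UT replicate 3 and Ngp without WT LPS replicate 2, and S100a9 was called (-1.02) without WT LPS replicate 3. In WT, S100a9 was also called with upper-quartile scaling (-1.05) and with the short RNA share as a covariate (-1.24), where Retnlg was not called. The comparisons share libraries, so their calls are not separate evidence.

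**Figure D3:**
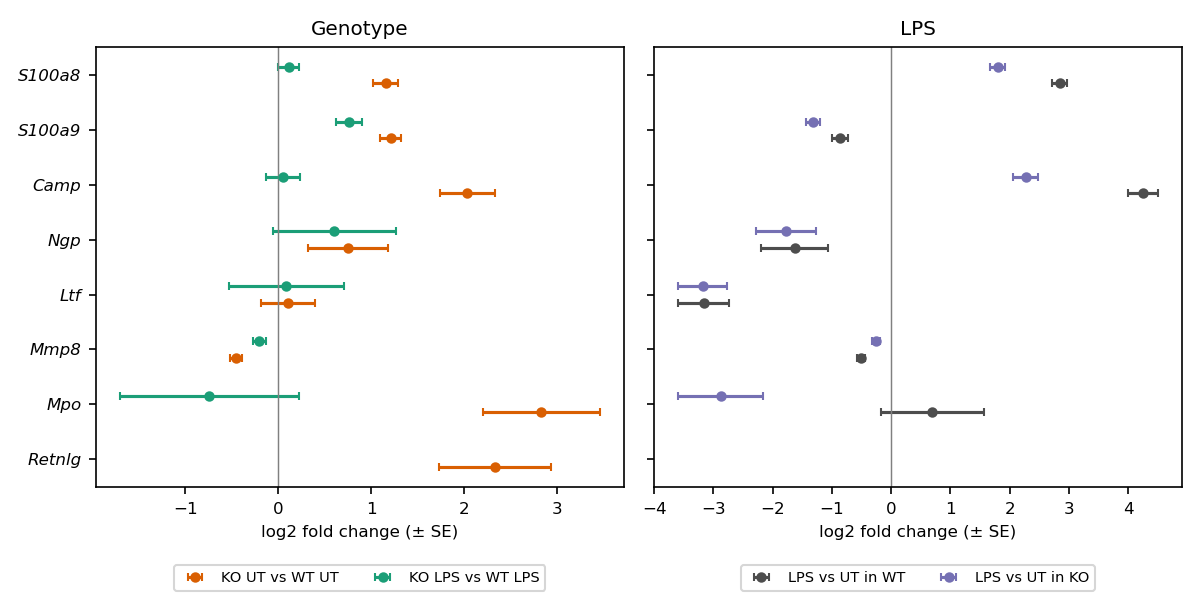
Fitted log2 fold change with SE (horizontal axis) of the 8 members tested, for genotype in UT and LPS cells (left) and for LPS in WT and KO cells (right). S100a8 and Camp lie at 1.80 to 4.25 for LPS and Ltf near -3.2, and Retnlg is drawn for KO UT against WT UT only, since it was at 0 counts after LPS.

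The LPS difference in KO minus that in WT was -1.05 (SE 0.177) for S100a8, -1.98 (SE 0.350) for Camp and -3.57 (SE 1.19) for Mpo on the log2 scale. These 3 were called lower and 0 were called higher, where 1.64% of all genes tested were called lower and 0.522% higher. The call of Mpo supports nothing, since it passed the filter through KO UT alone. Camp was called in 21 of 22 fits, S100a8 in 15 of 22 and Mpo in 7 of 21. For S100a8 and Camp, the LPS groups of the genotypes overlapped and the UT groups did not. Within batches the value was -0.57, -1.27 and -1.23 for S100a8 and -2.04, -2.05 and -1.83 for Camp. Over protein-coding genes under 800 bases, the same quantity had a median of -0.84, against 0.08 for those of 3200 or more bases. With the length trend and the replicate block it was -0.29 for S100a8 and -1.29 for Camp, and Camp alone was called. With the short RNA share as a covariate 0 members were called, at 0.41 for S100a8, -1.41 for Camp and -0.63 for Mpo. Without KO UT replicate 2, WT LPS replicate 3 or KO LPS replicate 2, S100a8 stood at -0.97, -0.83 and -0.98, under the fold minimum, as it did with RLE scaling and with DESeq2 (-0.97 in both). Mpo was not called with the replicate block alone (-3.56) and kept its call in 3 of the 12 fits that each left out 1 library, and it rests on counts of 1 to 20.

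The calprotectin genes parted from each other after LPS. The ratio of S100a8 to S100a9 counts within a library does not depend on library scaling. It was 0.698, 0.688 and 0.617 in WT UT and 0.583, 0.695 and 0.653 in KO UT, so these groups overlap. After LPS it was 8.04, 8.62 and 9.15 in WT and 7.25, 4.57 and 5.37 in KO, all above every UT library. The mean ratio was thus 0.668 ± 0.0442 in WT UT, 0.644 ± 0.0568 in KO UT, 8.60 ± 0.555 in WT LPS and 5.73 ± 1.38 in KO LPS (SD, n = 3), with every KO LPS library below every WT LPS library. Per exon base, the mean ratio was 0.502 in WT UT and 6.47 in WT LPS.

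**Figure D4:**
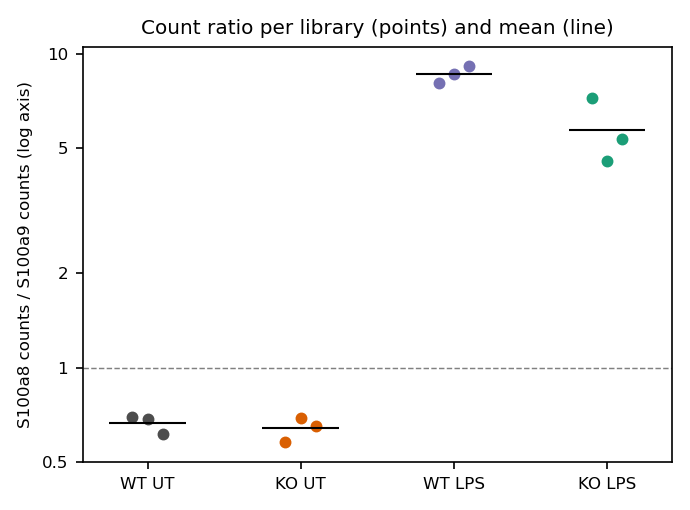
Ratio of S100a8 to S100a9 counts (vertical axis, log scale) in each library (points) of the 4 groups, with the group mean (line) and a dashed line at equal counts. All 6 UT libraries lie below 1, at 0.583 to 0.698, and all 6 LPS libraries above it, at 4.57 to 9.15.

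Genes with the most similar pattern were sought among 12393 other genes with a mean of at least 1 CPM. Over the 12 libraries, log2 CPM of Mmp8 was closest to Cd34 (Pearson r 0.971), Plag1 (0.955), Usf3 (0.953), Tep1 (0.952) and Plcxd2 (0.950), which have 7140 to 13050 bases of exon. S100a8 was closest to 1810022K09Rik (0.996), Ccdc58 (0.995), Fcer1g (0.994), Ppp1r11 (0.994) and Cript (0.994), which have 874 to 1975 bases. For deviations from the group mean, the closest genes were Gng5 (0.987), Snrpe, Dnajc19, Unkl and Nop10 for S100a8 and Gm44829 (0.951), Gm43420, Zkscan3, Rpl24 and D2hgdh for Mmp8. The points share libraries and depth, most of the spread is that between UT and LPS, and no p is given.

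A list of 32 other neutrophil genes was examined as well, with no test of the list against the members. It was chosen with earlier results of these data known, so its calls and p-values are a description only. Of these, 16 passed the filter, and in UT cells 0 were called between genotypes by edgeR's test, with 7 at an unadjusted p below 0.05 and 0 called by DESeq2. At any fold, 3 were higher and 3 lower in KO UT at an adjusted p below 0.05, where 23.8% of all genes tested passed that p in either direction. The median log2 difference was 0.06. Lyz2 (lysozyme), Cybb (an NADPH oxidase subunit), Anxa1, Csf3r (the G-CSF receptor), Hp (haptoglobin) and Lcn2 (lipocalin 2) had the highest mean CPM of the list. Lyz2, Cybb and Anxa1 are also abundant in macrophages.

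Genes of the earliest granules were near 0. Prtn3 (proteinase 3) had 0, 0 and 5 counts in WT UT and 3, 2 and 2 in KO UT. Ctsg (cathepsin G), named after its values were seen, had 0, 0 and 4 against 9, 6 and 14, and Ms4a3, a gene of granulocyte and monocyte precursors chosen in the same way, had 0, 0 and 0 against 4, 2 and 15. Both had at most 4 counts in any LPS library. Cebpe and Gfi1, transcription factor genes of granulocyte differentiation also named after their values were seen, had lower means in KO UT than in WT UT. Cebpe had 8, 9 and 12 counts in WT UT against 0, 3 and 4 in KO UT. Gfi1 had 7, 4 and 5 against 1, 0 and 4, which overlap in CPM. These 4 low genes thus did not share a direction. The neutrophil receptor gene Cxcr2 had at most 18 counts in any library.

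After LPS, 10 of the 16 rose and 2 fell in WT, and 10 rose and 2 fell in KO, by edgeR with Benjamini-Hochberg adjustment. The shares of all genes that rose and fell were 19.1% and 18.7% in WT cells, beside 17.7% and 19.3% in KO cells. As the list was chosen with earlier results known, the p-values of its genes are a description only. Lcn2, a siderophore-binding protein of specific granules, rose by 8.40 (SE 0.136, adjusted p = 1.96e-22) on the log2 scale in WT and by 8.37 (SE 0.137, adjusted p = 2.03e-22) in KO. It went from 22 to 26 counts in WT UT to 3971 to 4569 in WT LPS. Hp rose by 6.51 (SE 0.101) and 6.71 (SE 0.105), with adjusted p of 1.03e-22 and 9.79e-23. Gfi1, a transcription factor of granulocyte differentiation, and Trem3 are also among the 10, but they passed the filter through the LPS groups alone, so their calls support nothing and no p is given. Gfi1 went from 0 to 7 counts per UT library to 293 to 443 per LPS library, a log2 difference of 7.06 (SE 0.219) in WT and 7.93 (SE 0.272) in KO. Trem3 went from 0 to 8 counts to 146 to 192, with log2 differences of 7.15 (SE 0.411) and 6.04 (SE 0.377). Over the 17 fits, the WT value of Trem3 ran from 6.63 to 8.80 and its KO value from 5.4 to 7.29. The KO value of Gfi1 ran from 7.41 to 9.36, and both genes had at most 8 counts in any UT library.

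Wfdc21 rose by 5.21 in WT and 5.09 in KO, and the leukolysin gene Mmp25 by 4.03 and 4.56. Csf3r, Cybb, Ifitm6 and Mmp9 also rose, by 1.03 to 2.06. Padi4, the enzyme of histone citrullination in neutrophils, fell by 1.45 (SE 0.228, adjusted p = 6.87e-06) in WT and Ceacam1 fell by 1.81 (SE 0.128, adjusted p = 3.06e-11). The median log2 difference of the 16 genes was 1.25 in WT and 1.88 in KO, against 0.05 and -0.06 over all genes tested. By edgeR, the LPS difference was called different between genotypes for 0 of the 16, with 3 at an unadjusted p below 0.05 and 0 called by DESeq2.

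**Figure D5:**
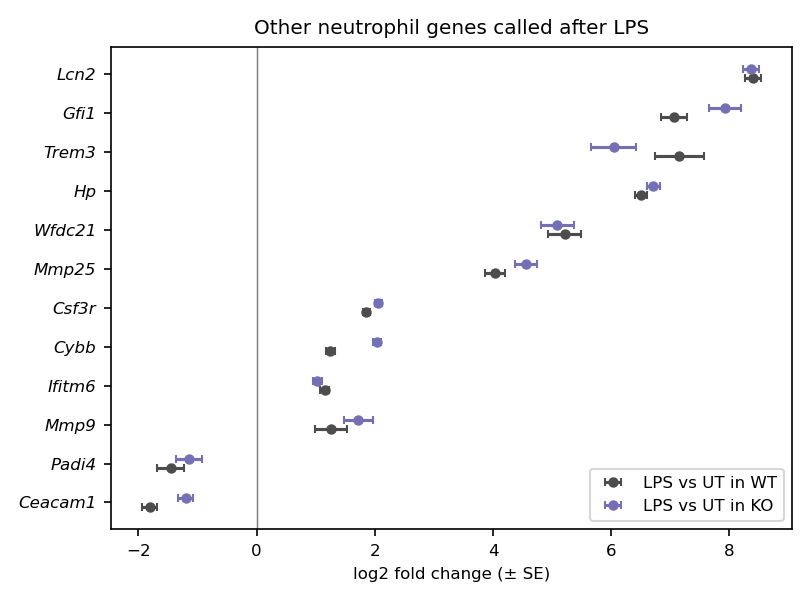
Fitted log2 fold change after LPS with SE (horizontal axis) of the 12 other neutrophil genes called, in WT and KO cells. Lcn2, Gfi1, Trem3, Hp, Wfdc21 and Mmp25 lie at 4.03 to 8.40, and Padi4 and Ceacam1 lie below 0.

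Between genotypes after LPS, 1 of the 16 was called higher and 0 lower, beside 0.586% and 0.664% of all genes tested. Mmp9 (gelatinase B, a tertiary granule protease) had 44, 27 and 47 counts in WT LPS and 91, 94 and 101 in KO LPS. It was higher in all 3 KO libraries by a log2 difference of 1.08 (SE 0.239, edgeR adjusted p = 0.00436). The list was chosen with earlier results known, so this p is a description only. With the WT LPS replicate 2 left out, the log2 difference of Mmp9 was 0.90, under the fold minimum.

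Markers of other cells were measured beside these results. Their lists were chosen with earlier results of these data known, so the counts of calls are a description only. Markers of eosinophils, basophils and mast cells summed to 1.74 CPM in WT UT and 3.99 in KO UT, and to 1.83 in WT LPS and 3.42 in KO LPS. Of 10 such genes 4 were tested, with 2 called higher in KO UT and 1 in KO LPS, against 1.02% and 0.586% of all genes tested, and Ear6 was at 0 in every library. Stromal markers summed to 7.32, 10.9, 5.83 and 18.0 CPM in WT UT, KO UT, WT LPS and then KO LPS, and all 5 tested of 6 were called higher in KO LPS, against the same 0.586%. Progenitor markers summed to 11.7, 9.33, 2.82 and 2.59 CPM in that order. Markers of B cells reached at most 2.09 CPM per library in sum, those of T and NK cells 0.455 and those of erythroid cells 0.323. Ly6g was at 0 and Elane, Prtn3 and Mpo were at no more than 20 counts in any library, beside up to 932 counts of S100a9 and 2370 of Mmp8. The part of other cell types in the member values was not tested.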

How the data were processed

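RNA-seq counts per gene were analysed for 12 libraries in 4 groups of 3, grouped by the labelled genotype and treatment. Stranded, globin-depleted total RNA libraries were made by the authors, who aligned the read pairs to GRCm38 (HISAT2 2.1.0) and counted reads per gene (featureCounts 2.0.0). The deposited table holds raw counts. The annotation release and the strand setting are not given in the sources used here. Symbols came from GENCODE vM21, which matched 48144 of 48526 identifiers, and the other 382 held 0.122% of counts.

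Counts were tested by quasi-likelihood in edgeR 4.0.16 (R 4.3.3) with TMM scaling and filterByExpr (minimum count 10, minimum total count 15), which kept 15523 genes, in a model of 4 group means. Adjustment was by Benjamini-Hochberg over these genes. Genes were called at an adjusted p below 0.05 with a log2 fold change beyond 1 in size. The code was tested on simulated data. Floors (3 counts) reflect counting error alone, as the reads carry no molecular identifiers and are not independent molecules. The members and lists were chosen with earlier results of these data known. Named genes are the members, per contrast up to 6 called genes of the wider list with the largest fold, its 6 most abundant, and the 5 genes most like Mmp8 and S100a8, while other list genes are named as examples chosen after their values were seen.

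Libraries of the same replicate number share a batch number, and differences within batches compare libraries by that number. What the libraries of a batch have in common is not stated in the sources used here. Deviations from group means correlated at r from -0.0631 to 0.0373 across genes in 18 pairs, and 0 exceeded 0.1. Replicates differed by more than counting noise (chi-square per degree of freedom of at least 3.81). Alternatives were RLE, upper-quartile and protein-coding TMM scaling, no filter, a filter at a mean of 1 CPM, a replicate block, a covariate for the short RNA share, the compared groups only, no fold minimum, DESeq2 1.42.0 and leaving out each library. A length offset with the replicate block was added after the data were seen.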

Additional observations from a re-analysis of the deposited data

Results flagged for a closer look

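The interaction term of the edgeR fit, the LPS difference in KO minus that in WT, passed the threshold for 3 members, at log2 values of -1.05 for S100a8, -1.98 for Camp and -3.57 for Mpo. In each case the LPS difference was lower in KO in all 3 batches. The RLE scaling gave -0.97 for S100a8, which was then not called, and -1.90 for Camp. With DESeq2, S100a8 was not called either (-0.97). The fit with the short RNA share as a covariate called 0 members, with 0.41 for S100a8, -1.41 for Camp and -0.63 for Mpo. Mpo rests on at most 20 counts in any library and passed the filter through KO UT alone, so its call supports nothing. These members were listed with results of these libraries known, so the values are given as a description.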

How the results depend on the processing

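Of 17 fits, the reported one included, Camp kept its call between genotypes in UT cells under 16, with log2 differences of 1.45 to 2.22, and S100a8 and S100a9 under 15. With the replicate block, paired by batch, 5 members were called in UT cells, as without it, and Mpo alone lost its interaction call. In the UT comparison 3 members were called with a mean CPM of at least 1, 3 with DESeq2, 0 with the short RNA covariate and 2 with the length offset and replicate block. DESeq2 gave no adjusted p for Retnlg and Mpo there, and the filter at 1 CPM removes both, so these are not lost calls. The cause of the other changes was not tested. After LPS the genotypes differed for 1 member with the covariate and 1 (S100a9) with no fold minimum. The LPS effect was called for 3 members in WT and 4 in KO with the filter at 1 CPM, and for 3 in KO with the covariate. The interaction was called for 0 members with the covariate, 1 with DESeq2 (which gave no adjusted p for Mpo) and 1 with the length offset and replicate block. Leaving out each library gave 4 to 5 members called in UT cells (Retnlg was lost without KO UT replicate 2), 3 to 6 for LPS in WT, and 1 to 3 for the interaction. The count fell to 1 without KO UT replicate 2, WT LPS replicate 3 or KO LPS replicate 2. With the covariate, the S100a8 interaction became 0.41 and the LPS difference of Ngp in KO 0.89.

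For the other neutrophil genes, the UT comparison gave 1 call with no filter (Ms4a3), 0 to 1 leaving out each library (1, Chil3, without WT UT replicate 1, and 1, Gfi1, without KO UT replicate 3) and 6 with no fold minimum. The LPS comparison of genotypes gave 2 with the covariate, 0 to 2 leaving out each library and 6 with no fold minimum, and the interaction 2 with no fold minimum. The summed member level in WT UT, KO UT and KO LPS was 75.4, 87.2 and 94.6 CPM with upper-quartile scaling, and 80.5 in KO UT with RLE and 81.0 with protein-coding TMM. Unscaled it was 90.6, 95.8, 79.5 and 83.1 CPM in the order WT UT, KO UT, WT LPS, KO LPS. Upper-quartile scaling moved the median log2 difference of all genes by -0.18 in both LPS contrasts. RLE scaling gave 134 genes higher and 168 lower in KO UT, against 159 and 124. The interaction has no value for the compared groups only, since it uses all 4. Depth limits Ngp, Ltf and Mpo after LPS, and Retnlg, Elane and Mpo in WT UT.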
